A study of Mus musculus with 10 samples.

Results

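Imprinted genes are described here in pancreatic islets of control mice and of mice labelled as knockouts, in which Grk5 was targeted. The genes were taken by name, not by measured value: 10 symbols known as imprinted, of which 9 were rows of the table of 17945 named genes (Peg3, Plagl1, Rasgrf1, Grb10, Igf2, Dlk1, Nnat, Sgce and Ndn). The remaining symbol, Meg3, was not analysed here. The study sequenced RNA from islets of 18-week-old C57BL/6 mice in 10 libraries, 5 of floxed controls and 5 of knockouts. The knockouts carried Pdx1-CreER, a Cre recombinase fused to an estrogen receptor domain and driven by the Pdx1 promoter, which is active in β cells and their precursors, together with Grk5 flox/flox. The controls carried Grk5 flox/flox alone. The floxed allele was thus common to all animals, and the Cre transgene was present by design in the knockouts only, so effects of the transgene and of Grk5 loss cannot be told apart. Whether the libraries stem from separate animals is not in the labels, and p-values therefore measure the spread between these libraries. The sources used here do not give the animals' sex.

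An imprinted gene is transcribed mainly from the allele inherited from the mother or mainly from that inherited from the father. The choice is carried by DNA methylation laid down in the germ line at imprinting control regions, and one such region usually governs a cluster of neighbouring genes. Many imprinted genes act on fetal growth, and several are transcribed in endocrine and neural cells. Of the 9 genes, Grb10 is expressed mainly from the maternal allele outside neurons, and the others mainly from the paternal allele. The deposited values do not separate alleles, so they measure the level of each gene and not its imprint.

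The libraries had the expression of islets: all 10 β-cell markers examined (among them Ins1, Ins2, Pdx1 and Mafa) were present. Library totals of normalized counts ran from 5534390 to 7358040, with 10222 to 14632 genes above 0. The commonest low value of a library, which may stand for 1 read, was between 0.527 (knockout 3) and 3.55 (knockout 1), so that knockout 1 was probably the shallowest library, with low genes least well measured there. Grk5, the targeted gene, averaged 242 ± 112 normalized counts over the controls and 161 ± 74.9 over the knockouts (SD, n = 5 each). The groups overlapped, with a log2 difference of -0.55 ± 0.42 (SE, limma adjusted p = 0.955). Loss of Grk5 was thus not shown by these values. Esr1, the estrogen receptor gene from which part of CreER is taken, was 1516.7 or more in all knockouts but also 2495.0 in control 2 and 773.5 in control 5, against 10.5 or less in controls 1, 3 and 4. Controls 2 and 5 therefore go against their label in this respect, and controls 2, 3 and 5 also had low values spaced differently from those of the other 7 libraries. For the listed genes, values without controls 2 and 5, and without controls 2, 3 and 5, are given where they move by over 1.5 times or change sign. In whole islets, fewer cells of a type and less RNA per cell cannot be told apart.

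Levels of the 9 genes differed over about 3 orders of magnitude. Per kilobase of exon, mean normalized counts over the 10 libraries were 1338 for Peg3, 106 for Rasgrf1, 53.4 for Nnat, 38.7 for Grb10, 36.6 for Ndn, 18.8 for Plagl1, 5.69 for Igf2, 2.35 for Sgce and 1.34 for Dlk1. Peg3 stood above 99.0% of the 11200 tested genes with a known exon length, and its lowest library (1110 per kilobase) was above the highest of Rasgrf1 (154). Below Rasgrf1, the ranges over libraries of neighbours in this order overlapped, and Rasgrf1 itself (from 65.1) overlapped with Nnat (up to 109). Sgce stood above only 1.21% of tested genes and Igf2 above 7.79%. Dlk1 had fewer than 13 normalized counts in all libraries but knockout 5. Expression in islets was therefore clear for Peg3 and Rasgrf1 in every library, while Igf2, Sgce and Dlk1 were at the low end of what was measured.

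**Figure D1:**
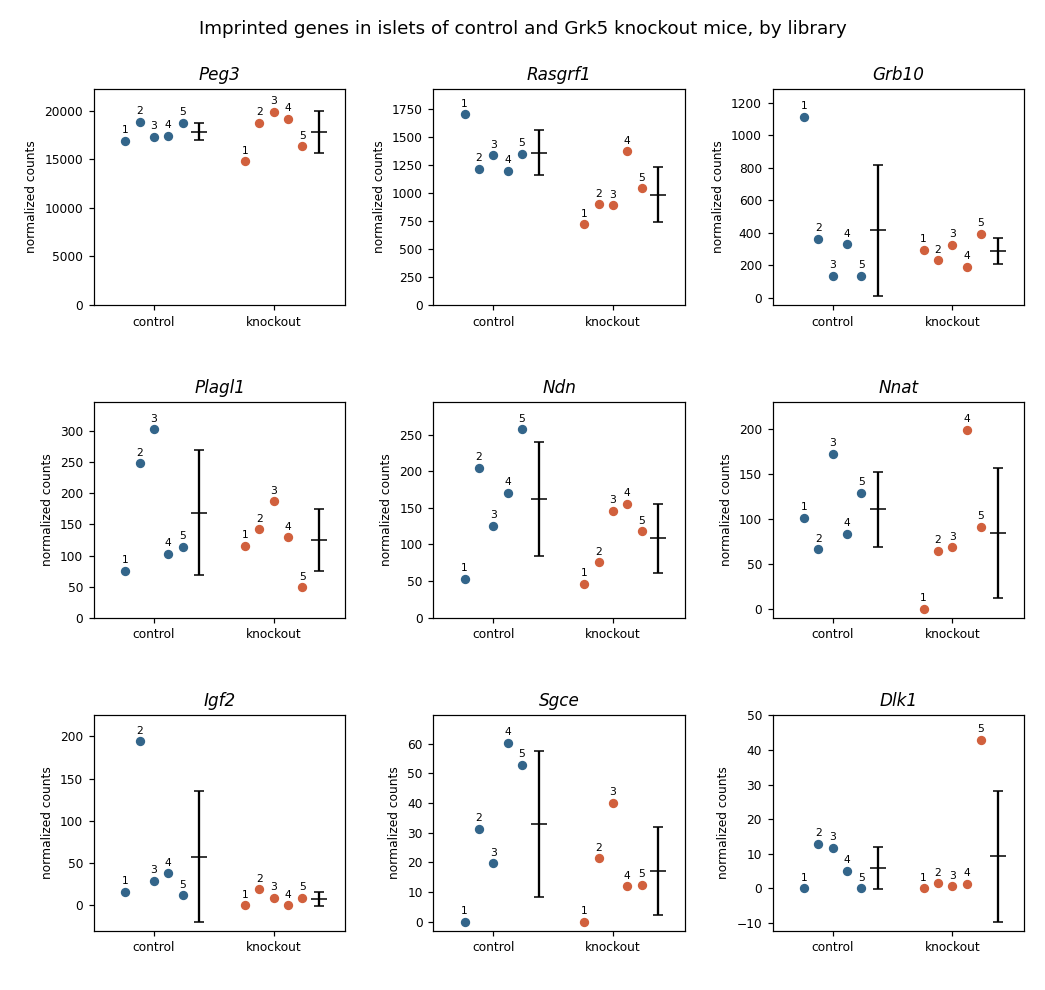
Normalized counts (vertical axes, each with its own scale) of the 9 imprinted genes in the 5 control (blue) and 5 knockout (orange) libraries; each point is a library with its number, and the black bar is the mean with its SD. Peg3 sits between 14792.4 and 19920.2 in all libraries, while the high control mean of Igf2 rests on control 2 (194.4) and that of Grb10 on control 1 (1112.0).

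Peg3 encodes a large zinc finger protein that binds DNA and has been linked to growth and maternal behaviour. The gene lies on chromosome 7 from 6703892 to 6730431 on the minus strand (GRCm38). It had 16907.2, 18885.8, 17341.8, 17388.2 and 18727.7 normalized counts over controls 1 to 5 in turn, and 14792.4, 18763.4, 19920.2, 19187.5 and 16324.6 over knockouts 1 to 5. Knockouts 1 and 5 were below all controls and knockouts 3 and 4 above all controls, so the knockouts enclosed the range of the controls. The means were 17850 ± 895 and 17798 ± 2155 (SD, n = 5 each), and the coefficient of variation over the 10 libraries was 8.73%, the smallest of the 9 genes. The log2 fold change, knockout over control on the log2(value + 8) scale, was -0.012 ± 0.091 (SE), with 95% limits of -0.20 to 0.18 and an adjusted p of 0.996 by limma. Its sign turned with equal library totals and when any of controls 2 and 5 or knockouts 1 and 5 was left out. Peg3 took 0.201% to 0.345% of each library.

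The start of Peg3 is shared ground with another imprinted gene, Usp29, which is transcribed in the opposite direction from 147 bases away and encodes a ubiquitin-specific protease. Usp29 was listed at 14.4 in control 1 and 14.1 in knockout 4 and at 0 in the other 8 libraries, a mean of 0.158 per kilobase against 1338 for Peg3. Zim1, a maternally expressed zinc finger gene that follows Peg3 in the same cluster, was 247.2 to 787.1 in controls and 282.7 to 446.2 in knockouts, or 51.5 per kilobase on average. Of the counts given to this head-to-head pair, almost all were thus assigned to Peg3. The direction of transcription was not measured, since the strand setting of the counting is unknown. Because the values bear on this start, its 300 bases are printed, from 250 before to 50 after the RefSeq start of Peg3. The window also holds the annotated start of Usp29. Rasgrf1 is shown beside it, as the gene with the smallest limma p of the 9, and Nnat as the third in level per kilobase. The windows are from RefSeq (GRCm38.p6), for Peg3 chr7:6730370-6730669 on the minus strand, for Rasgrf1 chr9:89909525-89909824 on the plus strand and for Nnat chr2:157559828-157560127 on the plus strand. Each is written 5′ to 3′ along its gene. The gene bounds given here are from another annotation, GENCODE M21, whose starts can differ from those of RefSeq. The Rasgrf1 window ends before the GENCODE start of that gene at 89909908.
Peg3: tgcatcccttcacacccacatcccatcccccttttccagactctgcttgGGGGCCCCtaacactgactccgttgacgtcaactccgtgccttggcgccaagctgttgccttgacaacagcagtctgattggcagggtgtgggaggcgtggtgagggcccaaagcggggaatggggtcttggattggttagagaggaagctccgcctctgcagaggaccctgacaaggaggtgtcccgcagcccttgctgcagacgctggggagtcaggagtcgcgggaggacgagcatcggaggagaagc
Rasgrf1: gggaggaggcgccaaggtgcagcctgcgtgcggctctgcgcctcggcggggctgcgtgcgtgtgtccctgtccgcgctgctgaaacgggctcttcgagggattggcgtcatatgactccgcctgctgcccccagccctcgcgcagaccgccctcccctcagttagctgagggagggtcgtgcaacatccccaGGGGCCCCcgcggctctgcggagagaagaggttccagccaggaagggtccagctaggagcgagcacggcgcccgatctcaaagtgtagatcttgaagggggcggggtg
Nnat: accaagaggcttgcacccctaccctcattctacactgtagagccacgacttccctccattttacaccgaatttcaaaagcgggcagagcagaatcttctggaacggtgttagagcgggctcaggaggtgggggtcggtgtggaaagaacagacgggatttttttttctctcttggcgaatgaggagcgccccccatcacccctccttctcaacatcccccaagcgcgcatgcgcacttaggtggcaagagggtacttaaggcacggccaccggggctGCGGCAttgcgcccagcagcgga
Capitals mark GGGGCCCC, the letters known as the binding motif of the protein that Plagl1 encodes, and TGCCGC, the core recognised when methylated by ZFP57, a zinc finger protein that keeps germ line imprints. Both were searched on both strands, TGCCGC also as GCGGCA, and a motif that reads the same on both strands, as GGGGCCCC does, was counted once.

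GGGGCCCC was found in the windows of Peg3 and Rasgrf1, and in none of the other 10 windows of these genes. Of 32851 RefSeq windows of that length, 1.08% held it. TGCCGC was found in 4 windows, those of Nnat, Plagl1, a start of Grb10 and a start of Igf2, where 11.6% of all windows held it. Together 8 of the 9 genes had 12 windows, since Igf2 had 4 starts and Grb10 had 2. No window was matched for Sgce. The CpG dinucleotide, the site of DNA methylation, occurred 13 times in the Peg3 window, 26 times in that of Rasgrf1 and 17 times in that of Nnat, against a median of 7 over all windows. The Grb10 window at chr11:12037371-12037670 held 45, more than all but 1.65% of windows, and 10 of the 12 windows were above the median. The first Igf2 window by transcription, at chr7:142666767-142667066, held 2. These are letter matches in fixed windows, and binding or methylation was not measured.

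**Figure D2:**
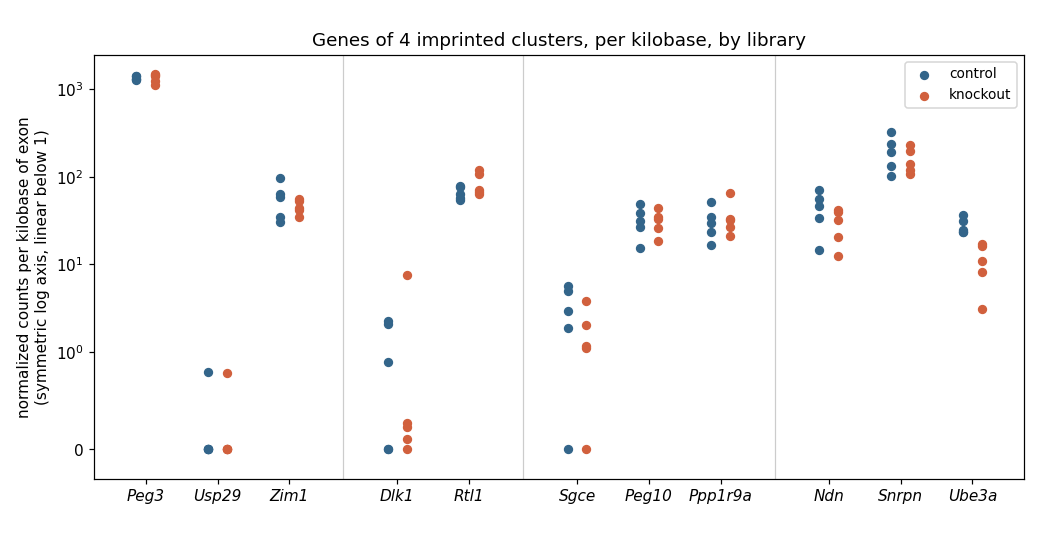
Normalized counts per kilobase of exon (vertical axis, symmetric log scale that is linear below 1) for genes of 4 imprinted clusters, separated by grey lines; each point is a library, blue for control and orange for knockout. Peg3 lies above 1110 while Usp29, which starts 147 bases away, is at 0 in 8 libraries, and Ube3a is the gene whose groups do not overlap.

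Plagl1 encodes a zinc finger transcription factor that restrains cell proliferation and is known as a regulator of other imprinted genes. Its overexpression is a known cause of transient neonatal diabetes. The gene lies on chromosome 10 from 13060504 to 13131694. It had 75.4, 248.4, 302.8, 102.4 and 114.1 normalized counts over controls 1 to 5 in turn, and 115.3, 142.1, 187.1, 129.6 and 49.0 over knockouts 1 to 5. Controls 2 and 3 were the highest of all libraries, and the other 3 controls lay within the range of the knockouts. Knockout over control, limma put Plagl1 at -0.33 ± 0.49 in log2 (SE, adjusted p = 0.969). It was -0.56 without control 1 and -0.53 with the mean of the acinar cell markers as a covariate. Nearer to no difference, it was -0.15 without control 2, -0.082 without control 3 and -0.054 without knockout 5. It was -0.21 without controls 2 and 5, and 0.36 without controls 2, 3 and 5.

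Rasgrf1 had the smallest unadjusted limma p of the 8 genes tested. The exact permutation p of Igf2 was smaller, but the controls alone carried Igf2 past the filter on low values. Rasgrf1 encodes a guanine nucleotide exchange factor that activates Ras when calcium binds calmodulin, and it lies on chromosome 9 from 89909908 to 90026977. Its normalized counts were 1706.8, 1218.5, 1340.1, 1198.4 and 1349.5 over controls 1 to 5 in turn, and 720.3, 899.6, 892.1, 1376.2 and 1044.5 over knockouts 1 to 5. Knockouts 1, 2, 3 and 5 lay below the lowest control, while knockout 4 lay above 4 of the 5 controls, so the groups overlapped. The means were 1363 ± 204 and 987 ± 246 (SD, n = 5 each). By limma the log2 fold change was -0.48 ± 0.21 (SE), with 95% limits of -0.92 to -0.051. The unadjusted p was 0.0305 and the adjusted p 0.942. An exact 2-sided permutation test gave an unadjusted p = 0.0397, where 5 against 5 libraries allow no p below 0.00794. In the authors' deposited table Rasgrf1 stands at -0.47 in log2, at an adjusted p of 0.665. Rasgrf1 therefore did not pass over all genes. Its fold change was negative under all 22 alternatives examined, from -0.61 without knockout 4 to -0.38 without knockout 1.

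Grb10 encodes an adaptor that binds the insulin and IGF1 receptors and dampens their signalling, and it lies on chromosome 11 from 11930508 to 12038683. Its normalized counts were 1112.0, 364.5, 137.3, 329.7 and 136.5 over controls 1 to 5 in turn, and 294.7, 231.9, 327.7, 192.2 and 393.0 over knockouts 1 to 5. Control 1 was about 3 times the next highest control, and all knockouts lay between the controls' extremes. Its difference in log2 was -0.12 ± 0.47 (SE, limma adjusted p = 0.987), and 0.34 without control 1. Leaving out knockout 4 gave 0.011, control 3 -0.39 and control 5 -0.40. Leaving out controls 2 and 5 together gave -0.40, and controls 2, 3 and 5 together -1.10.

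Igf2 and Dlk1 encode secreted or membrane-bound ligands. IGF2 is a fetal growth factor that signals through the IGF1 and insulin receptors, and its gene neighbours Ins2 on chromosome 7, with 11840 bases between the 2 genes. Igf2, from 142650766 to 142666816, had 15.6, 194.4, 29.2, 37.9 and 11.8 normalized counts over controls 1 to 5 in turn, and was listed at 0, 19.1, 9.2, 0 and 8.6 in knockouts 1 to 5. Knockouts 1, 3, 4 and 5 lay below the lowest control, and knockout 2 lay above controls 1 and 5. The neighbouring Ins2 had between 554944 and 803858 normalized counts in every library. For Igf2 limma gave a log2 difference of -1.67 ± 0.73 (SE), with 95% limits of -3.20 to -0.14. The unadjusted p was 0.0340 and the adjusted p 0.942. An exact 2-sided permutation test gave an unadjusted p = 0.0317.

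The size of the Igf2 difference depended on control 2 and on the pseudocount. Without control 2 the log2 fold change was -1.12 (unadjusted p = 0.113 by limma). It was -2.92 with a pseudocount of 1 and -0.91 with a pseudocount of 32. The controls alone carried Igf2 past the filter on low values, since all 5 of them reached 10, against 1 knockout. Its p-values are therefore given as a description and not as support for a difference. Without controls 2 and 5 it no longer passed the filter and was not tested. In the authors' deposited table Igf2 stands at -2.87 in log2, at an adjusted p of 0.489. In GENCODE M21, 62.8% of the exon bases of Igf2 are shared with the gene Gm49394. How reads in shared exons were counted is not stated in the sources used, so the level of Igf2 is uncertain.

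Dlk1, a membrane protein of the Notch ligand family known from endocrine and fetal tissue, lies on chromosome 12 from 109452823 to 109463336. Its normalized counts were 0, 12.8, 11.7, 5.1 and 0 over controls 1 to 5 in turn, and 0, 1.5, 0.6, 1.3 and 43.0 over knockouts 1 to 5. Knockout 5 was the highest library and the groups overlapped. Dlk1 did not pass the filter on low values and has no test. Rtl1, a paternally expressed gene of the same cluster derived from a retrotransposon, had 349.2 to 497.6 normalized counts in controls and 406.2 to 752.8 in knockouts, a log2 difference of 0.32 ± 0.27 (SE, limma adjusted p = 0.955). Per kilobase, Rtl1 averaged 75.8 and Dlk1 1.34. The values of Rtl1 were higher per kilobase in every library, but a transcript known to run antisense to Rtl1 cannot be told apart from it without strand.

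Nnat encodes neuronatin, a small membrane proteolipid of the endoplasmic reticulum that is known to aid insulin processing in β cells. It lies on chromosome 2 from 157560078 to 157562522, inside the gene Blcap on the opposite strand, with which it shares no exon base. Nnat had 101.5, 66.2, 172.9, 83.3 and 129.3 normalized counts over controls 1 to 5 in turn, and 0, 64.3, 68.4, 199.4 and 91.5 over knockouts 1 to 5. The highest and the lowest library were both knockouts. The mean log2 difference was -0.87 ± 0.72 (SE, limma adjusted p = 0.955), and -0.13 without knockout 1, the library with the largest value per likely read. Blcap, the host gene, had 25.8 to 260.7 normalized counts in controls and 41.6 to 366.6 in knockouts.

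Sgce encodes ε-sarcoglycan, a membrane glycoprotein whose loss causes myoclonus-dystonia, and lies on chromosome 6 from 4674350 to 4747207. It had 0, 31.3, 19.7, 60.4 and 52.8 normalized counts over controls 1 to 5 in turn, and 0, 21.4, 40.0, 11.9 and 12.4 over knockouts 1 to 5. The libraries at 0 were the first of each group, and the groups overlapped. In log2 the knockouts differed by -0.60 ± 0.74 (SE, limma adjusted p = 0.966). The value was -1.10 without control 1, -0.33 without control 4, -0.37 without control 5 and -0.24 without knockout 1. Without controls 2 and 5 it was -0.20, and without controls 2, 3 and 5 it was -0.12. Peg10, a retrotransposon-derived gene that starts 99 bases away on the other strand, had 103.1 to 321.7 normalized counts in controls and 122.9 to 290.6 in knockouts. Its log2 fold change was 0.0025 ± 0.39 (SE). Per kilobase the pair averaged 2.35 for Sgce and 31.6 for Peg10, so here too the levels of a head-to-head pair were uneven.

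Ndn encodes necdin, a MAGE family protein that restrains growth of neurons and other cells and lies in the Prader-Willi region, on chromosome 7 from 62346569 to 62350262. Its normalized counts were 53.2, 204.8, 125.7, 170.9 and 257.2 over controls 1 to 5 in turn, and 46.1, 75.4, 146.1, 155.3 and 118.2 over knockouts 1 to 5. All 5 knockouts lay below the median of the controls (170.9), but only knockout 1 lay below the lowest control. Ndn differed by -0.51 ± 0.50 in log2 (SE, limma adjusted p = 0.963). It was -0.83 without control 1, -0.31 without control 5, -0.26 without knockout 1, -0.079 without controls 2 and 5 and 0.039 without controls 2, 3 and 5.

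Across the 9 genes no difference between the groups passed the test. Of 8 tested, limma put 0 past an adjusted p of 0.05, where the share over all 11711 genes was 0%. At an unadjusted p under 0.05, 2 were lower in the knockouts (Rasgrf1 and Igf2), against 2.66% of all genes tested, and 0 were higher, against 2.36%. In either direction the share over all genes was 5.01%. The controls alone carried Igf2 past the filter, so a lower value in the knockouts is in part set by its being tested. Its p-values are not read as support for a difference, although it enters the count, the directions and the median given here. The count of 2 fell to 0 without knockout 1 and without controls 2 and 5. It was 1 without any of controls 1, 2 and 4 or knockouts 2, 3 and 4, with equal library totals, with the acinar covariate, with a minimum value of 50, without the variance trend, and without controls 2, 3 and 5 (Grb10). None of the 8 had groups that did not overlap, against 0.862% of all genes (0.427% lower and 0.435% higher in the knockouts). The fold change was below 0 for all 8 tested, with a median of -0.49, where 52.4% of all genes were below 0 with a median of -0.03. The 8 are those that passed the filter, and Peg3 and Grb10 among them turn sign with single libraries. Without knockout 1, 7 of 8 were below 0 and the median was -0.25, and with quality weights 6 of 8 were (median -0.36). Without controls 2 and 5, 6 of 7 tested genes were below 0 (median -0.21), and without controls 2, 3 and 5, 4 of 7 were (median -0.12). The authors' deposited table calls 0.136% of its genes with an adjusted p, and none of the 9.

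**Figure D3:**
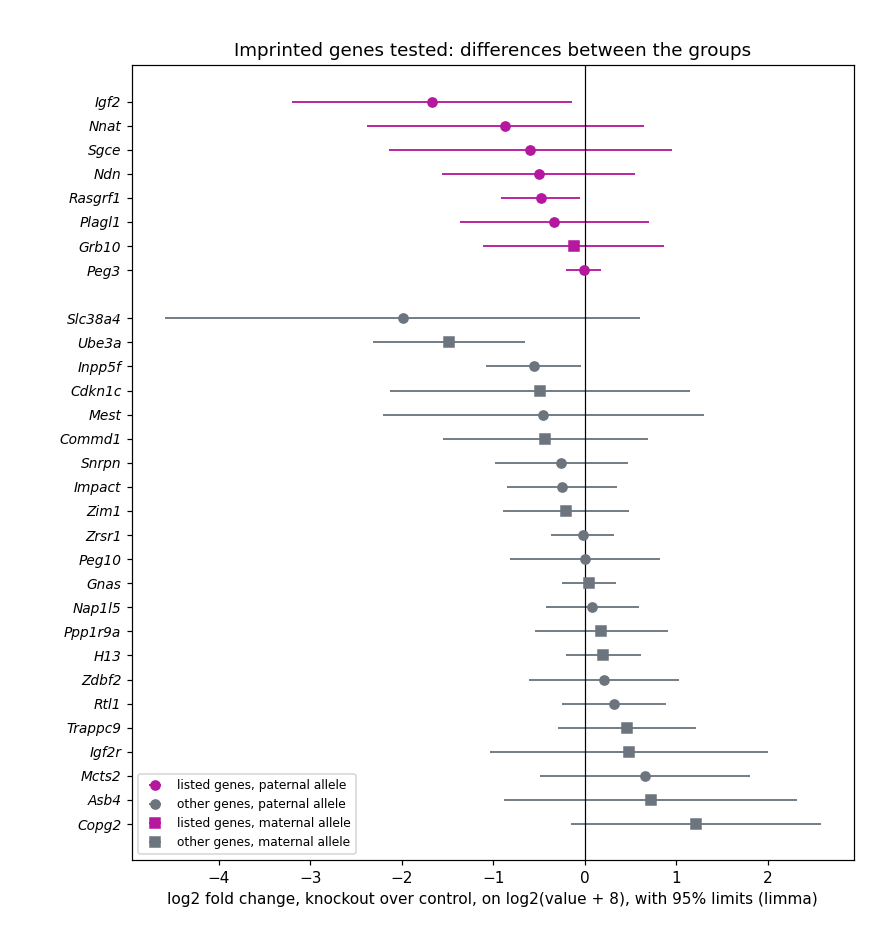
Log2 fold change of knockout over control (horizontal axis, on the log2(value + 8) scale, with 95% limits from limma). Purple marks the 8 genes of the list that were tested and grey marks 22 other imprinted genes. Circles are genes listed as paternally and squares as maternally expressed. Purple values run from -1.67 (Igf2) to -0.012 (Peg3) and grey values lie on both sides of 0.

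Other imprinted genes lay on both sides of 0. Of 42 further genes listed from textbook knowledge by cluster and expressed allele, 27 were found and 22 tested. Of these, 10 were lower and 12 higher in the knockouts, with a median log2 fold change of 0.025, and 0 passed the adjusted threshold by limma. Over all genes tested, 52.4% were below 0 and 0% passed that threshold. At an unadjusted p under 0.05 by limma, 2 of the 22 were lower (Ube3a and Inpp5f), against 2.66% of all genes tested. None of the 22 was higher, against 2.36%, and the share over all genes in either direction was 5.01%. Mcts2 was higher by 0.66 ± 0.55 in log2 (SE, limma unadjusted p = 0.245 and adjusted p = 0.955). Its unadjusted exact 2-sided permutation p was 0.0397. By allele, 13 of 18 tested paternally expressed genes of the whole list were lower (median -0.30), and 5 of 12 maternally expressed genes were (median 0.12). Of the 18 paternal genes, 7 are those described above, and of the other 11, 6 were lower (median -0.021). The allele of each gene is as listed and was not measured in islets. Whether the alleles differ was not tested. Levels were high for Zrsr1, a splicing factor gene (4616.1 to 9850.5 normalized counts), and for Gnas, which encodes the stimulatory G protein subunit (3206.0 to 4909.8).

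Ube3a is a ubiquitin ligase gene of the cluster that holds Ndn. It was listed as maternally expressed, but whether that holds in islets was not measured. Ube3a was the only one of the 22 with groups that did not overlap, against 0.427% of all genes in that direction. It had 641.2, 757.6, 481.0, 486.2 and 514.4 normalized counts over controls 1 to 5 in turn, and 351.4, 170.4, 224.1, 63.5 and 335.5 over knockouts 1 to 5. Every knockout lay below every control. Ube3a differed by -1.48 ± 0.39 in log2 (SE, limma unadjusted p = 0.00136 and adjusted p = 0.881), and this ran from -1.69 to -1.10 with single libraries left out. An exact 2-sided permutation test gave an unadjusted p = 0.00794, the smallest possible here. Snrpn, a paternally expressed splicing protein gene of the same cluster, averaged 425 ± 188 normalized counts over the controls and 340 ± 111 over the knockouts (SD, n = 5 each), which differed by -0.26 ± 0.35 in log2 (SE). The Snrpn value was -0.056 without control 5 and 0.14 without controls 2 and 5, where Ndn was at -0.079 and Ube3a at -1.39. None of these 3 genes passed over all genes. Snrpn shares transcripts with Snurf, and Ube3a, Rtl1, Igf2r and Copg2 have known antisense transcripts. With the strand setting of the counting unknown, sense and antisense reads of these genes cannot be told apart.

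Inpp5f, an inositol phosphatase gene, averaged 908 ± 241 normalized counts over the controls and 609 ± 145 over the knockouts (SD, n = 5 each). It differed by -0.56 ± 0.25 in log2 (SE, limma unadjusted p = 0.0363 and adjusted p = 0.942). The groups overlapped, with 3 knockouts below the lowest control. By limma the unadjusted p of Inpp5f was 0.0663 with equal library totals and 0.0865 with quality weights. It was 0.0907 without control 1, 0.104 without control 2 and 0.0185 without control 5. Slc38a4, an amino acid transporter gene, was 495.4 to 828.7 in controls, and was listed at 122.9, 513.9, 418.9, 0 and 735.1 in knockouts 1 to 5. Its log2 difference was -1.99 ± 1.15 (SE, limma unadjusted p = 0.117 and adjusted p = 0.942). The unadjusted exact 2-sided permutation p was 0.0476 for Slc38a4 and for Inpp5f. Igf2r, whose receptor clears IGF2, was 455.4 to 648.3 in controls 2 to 5 but 2015.6 in control 1, and was 3880.1 and 2041.8 in knockouts 2 and 4 against 378.5 to 667.1 in the other 3. The log2 difference of Igf2r was 0.48 ± 0.68 (SE, limma adjusted p = 0.969). It was -0.0031 without knockout 2, 0.23 without knockout 4, 0.85 without control 1 and 0.83 without knockout 1. Copg2, a coatomer subunit gene beside Mest, had the highest positive value, 1.22 ± 0.64 (SE, unadjusted p = 0.0775 by limma). It was 0.80 without control 4 and 0.33 with the acinar marker mean as a covariate. Without control 1 it was 1.59 (unadjusted p = 0.0245 and adjusted p = 0.979 by limma). Without control 2 it was 1.56 (unadjusted p = 0.0300 and adjusted p = 0.944 by limma). The unadjusted limma p of Copg2 was also under 0.05 without knockout 2.

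The genes also varied between libraries of the same group. Pearson correlations of log2(value + 8) over the 10 libraries were computed for the 28 pairs of the 8 tested genes. They ran from -0.49 (Grb10 and Ndn) to 0.85 (Sgce and Ndn), with a median of 0.29, and 22 were positive. None passed after adjustment, and 4 pairs had an unadjusted permutation p under 0.05. Sgce and Ndn had r = 0.85 (permutation p = 0.00217, adjusted p = 0.0608) and Spearman's rho = 0.77 (permutation p = 0.0130, adjusted p = 0.181). Both genes were lowest in control 1 and knockout 1, and without these libraries r was 0.56. Within the 5 controls r was 0.93 and within the 5 knockouts 0.69.

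Nnat and Rasgrf1 had r = 0.77 (permutation p = 0.00514, adjusted p = 0.0720) and Spearman's rho = 0.81 (permutation p = 0.00736, adjusted p = 0.181). Both were lowest in knockout 1, and knockout 4 was the highest of the knockouts for both. Without these libraries r was 0.61, and it was 0.29 within the controls and 0.89 within the knockouts. Grb10 had negative r with 5 of the other 7 genes, among them -0.48 with Plagl1, -0.48 with Sgce and -0.49 with Ndn, none with an unadjusted permutation p below 0.148. Its r was 0.17 with Rasgrf1 and 0.12 with Igf2. Without control 1 and control 5, r with Ndn was 0.12 and with Sgce 0.17.

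**Figure D4:**
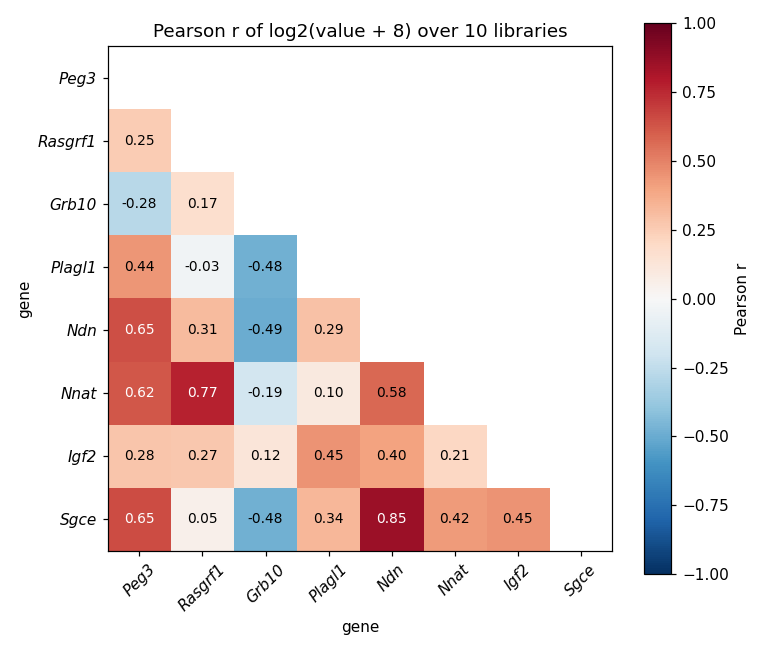
Pearson r (colour and printed value) of log2(value + 8) over the 10 libraries for the 28 pairs of the 8 tested imprinted genes. The genes are named on both axes and ordered by mean normalized counts, not per kilobase. The darkest cells are Sgce with Ndn (0.85) and Nnat with Rasgrf1 (0.77), and none of the 28 passed after adjustment.

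The genes most like each of the 8 over the 10 libraries, among genes with a mean of at least 100 normalized counts, are given as descriptions, since each is the highest of about 6930. For Peg3 they were Cep120 (r = 0.94), Luc7l2 (r = 0.92) and Rrbp1 (r = 0.89). For Rasgrf1 they included Tmem251 (r = 0.95) and Arl13b (r = 0.92). The closest gene to Igf2 was Zcchc14 (r = 0.95), to Grb10 Zfp655 (r = 0.93), to Plagl1 Znrf1 (r = 0.87), to Ndn Apobec3 (r = 0.94), to Nnat Cnot3 (r = 0.97) and to Sgce Zbtb40 (r = 0.94). No imprinted gene was among the 24 so chosen.

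Markers of other cells were compared because several of these genes are transcribed in stroma, vessels or nerve. The 11 mesenchymal markers found summed to 676 to 1115 normalized counts in controls and 569 to 934 in knockouts, and Lum, Thy1 and Cspg4 were at 0 in at least 5 libraries. The 8 endothelial markers summed to 2336 to 2902 and 2795 to 3468. The 7 neural and Schwann cell markers found summed to 93.4 to 422 and 135 to 318, with Sox10, S100b, Cdh19 and Prph among those at 0 in at least 5 libraries. All 16 acinar markers were lower on average in the knockouts, with mean log2 values of 11.04 ± 1.07 and 10.12 ± 0.53 (SD, n = 5 each, exact 2-sided permutation p = 0.135), as were all 10 β-cell markers, with 13.1 ± 0.14 and 12.9 ± 0.083 (exact 2-sided permutation p = 0.0476, unadjusted over 9 lists). All 5 delta and PP cell markers were lower too, with 10.45 ± 0.30 and 10.22 ± 0.55 (exact 2-sided permutation p = 0.524), while 7 of 8 endothelial markers were higher, with 7.83 ± 0.25 and 8.02 ± 0.18 (exact 2-sided permutation p = 0.246). The acinar list summed to 21484 to 223138 in controls and 29373 to 76851 in knockouts. The β-cell list summed to 960729 to 1183710 in controls and 970943 to 1283460 in knockouts. In the remaining lists 3 of 7 alpha cell, 2 of 6 ductal, 6 of 11 mesenchymal, 4 of 7 immune and 5 of 7 neural markers were lower. With the acinar mean as a covariate, the log2 fold change of Rasgrf1 was -0.48 and that of Igf2 was -2.19, while Sgce was at -0.11 and Nnat at -0.54. With the mesenchymal mean as a covariate, Rasgrf1 was at -0.48 and Igf2 at -1.63. The part of β-cell or other endocrine content in these values was not tested.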

How the data were processed

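RNA of islets was sequenced in 10 libraries (5 control, 5 knockout). Per the labels' protocols, RNA was depleted of ribosomal RNA and made into libraries with a stranded random-primed kit. The tools listed in the submitters' processing notes are HTSeq, DESeq2 and STAR 2.4.0.1, with no role stated. For build, annotation and strand setting nothing is given in the sources used here. The authors deposited normalized counts per gene, a signal unit that is not whole reads (25.0% to 37.0% of values above 0 were whole multiples of a library's commonest value, within 0.01), so no count test was run. The authors' deposited table also holds p-values, adjusted p-values, a test score and log2 fold changes with their errors. Of 17946 rows, 1 had no name (0.00774% to 0.0251% of a library) and was left out.

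Genes with at least 10 normalized counts in at least 5 libraries (11711) were compared on log2(value + 8) with limma 3.58.1 in R 4.3.3 (trend, robust, Benjamini-Hochberg at 0.05 over all genes), a scale that understates changes of low genes. The step was also run on simulated data, with normal spread drawn separately for each gene. Such data hold no differences between whole libraries, so the run does not bear on them. Groups follow the genotype label, and replicate numbers follow accession order and pair nothing. Correlations used 100000 permutations, or all arrangements where a library was left out. Named are all listed genes found, Grk5, Esr1, other imprinted genes of their clusters, those with an unadjusted p under 0.05 and up to 2 per further cluster, and the 3 genes most like each. Not all are reported. The genes and lists were chosen with earlier results of these data known. Blcap and Ins2 were added as neighbours after their values were seen. Positions and exon lengths are from GENCODE M21 (GRCm38), which may not be the authors' build. Python 3.11.15, scipy 1.17.1 and matplotlib 3.10.9 were used. Alternatives were other scalings, filters, pseudocounts, variance models, weights, marker covariates and omitted libraries.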

Additional observations from a re-analysis of the deposited data

Results flagged for a closer look

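In groups of 5, a library was marked when its gap to the nearest other library exceeded 0.710 of the group's range. For normally distributed values chance does so in about 1 of 20 groups. The gaps were taken on normalized counts, which need not be so distributed, so this share is only a rough guide. Of 18 groups of the listed genes, 3 had such a library. Dlk1 was 43.0 in knockout 5, against 1.5 in the next knockout. Grb10 was 1112.0 in control 1, against 364.5 in the next control. Igf2 was 194.4 in control 2, against 37.9 in the next control. Among the other imprinted genes, Igf2r was 2015.6 and Mest 255.8 in control 1, each far above the other controls (up to 648.3 and 42.2). Ppp1r9a was 956.5 in knockout 5, against 484.4 in the next knockout. Gnas was lowest in knockout 1, at 3206.0, against 4352.1 in the next knockout. In all, 7 of 66 groups were marked, 3 of them by control 1.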

How the results depend on the processing

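The number of listed genes past the adjusted threshold by limma was 0 under all 22 alternatives, as was that of other imprinted genes. The median log2 fold change of the listed genes ran from -0.70 to -0.25 with single libraries left out. The sign of Peg3 turned with equal library totals (0.0098), quality weights (0.050), the acinar covariate (0.0085), without controls 2 and 5 (0.039) and without controls 2, 3 and 5 (0.045), and it ran from -0.054 to 0.053 with single libraries left out. Grb10 turned with quality weights (0.068), and ran from -0.40 to 0.34 with single libraries left out. Without controls 2, 3 and 5, Plagl1 (0.36) and Ndn (0.039) turned, and Grb10 was at -1.10 (unadjusted p = 0.0462, adjusted p = 0.999 by limma). The cause was not tested. Of the 28 correlations, 1 passed with a pseudocount of 1 (Sgce and Ndn), and 0 to 1 passed with single libraries left out (Nnat and Rasgrf1 without control 1, Sgce and Ndn without knockouts 2 or 4). Omitting controls 2 and 5, or 2, 3 and 5, was chosen after seeing the data. No paired analysis was possible because the labels give no replicate numbers. Of the listed genes, Igf2, Sgce and Dlk1 had libraries at 0, as did Nnat in knockout 1. The part of sequencing depth in these zeros was not tested.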
